A study of Homo sapiens with 16 samples.

Results

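The SLIT2 and ROBO1 sites are the 33 entries of a deposited list of 13398 candidate pseudouridine positions in HEK293T pre-mRNA whose gene symbol was SLIT2 (18 sites) or ROBO1 (15 sites). Both genes were picked because they hold many listed sites, so their numbers of sites, and the levels that put those sites on the list, are described here without a test. The series measured pseudouridine with PRAISE-seq, in which RNA is treated with bisulfite and the enzyme that copies it to DNA jumps over a modified base, so that the level of a site is the percentage of its reads that lack that base. Its 16 libraries are from HEK293T, a transformed human embryonic kidney line, and HuCCT1, a cholangiocarcinoma line. In HEK293T they are 3 bisulfite libraries of a triple knockout lacking PUS1, PUS7 and RPUSD4, 3 libraries of that knockout whose titles carry no bisulfite mark, 2 bisulfite control libraries and 2 non-treated control libraries. In HuCCT1 they are 3 bisulfite libraries and 3 input libraries. The list gives 1 level and 1 coverage per site with no value per library, and the labels do not say from which libraries each value was made. No value of the knockout could therefore be set against its control, and the list holds no expression values with which the labelled cell line could be checked against markers.

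SLIT2 is a secreted ligand and ROBO1 a transmembrane receptor that binds it. Slit binding to Robo receptors repels growing axons, most famously at the midline of the nervous system, and the same pair acts in cell migration and in kidney and vessel development. The receptor has no enzymatic activity of its own and signals through adaptors and regulators of the actin cytoskeleton. Both genes are long and most of their length is intron, so unspliced transcripts carry most of the sequence in which a site could be found. Pseudouridine itself is an isomer of uridine made after transcription by pseudouridine synthases, among them PUS1, PUS7 and TRUB1, each of which prefers its own sequence around the target base.

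The sequences below are the sites on which the results turn, as deposited: 11 bases in the sense of the strand given, on hg38, written 5′ to 3′ with T for uridine and with the listed base in capitals. The SLIT2 set holds the 3 highest levels, the other site in a PUS1 motif, an adjacent pair, the site on the opposite strand and the site in the 3′UTR.
SLIT2 intron, chr4:20405535-20405545, plus strand: cataaTaatct
SLIT2 intron, chr4:20360089-20360099, plus strand: ctcacTccctc
SLIT2 intron, chr4:20290351-20290361, plus strand: aaaaaTacaaa
SLIT2 intron, chr4:20381346-20381356, plus strand: aataaTaaata
SLIT2 intron, chr4:20357757-20357767, plus strand: agcttTtattc
SLIT2 intron, chr4:20357758-20357768, plus strand: gctttTattcc
SLIT2 intron, chr4:20306156-20306166, minus strand: gctgcTttcag
SLIT2 3′UTR, chr4:20619408-20619418, plus strand: ggacaTaccaa
The ROBO1 set holds the 3 highest levels, the deepest site, the closest pair, both exonic sites, the site in the 3′UTR and a context listed at 8 other sites.
ROBO1 intron, chr3:78811932-78811942, minus strand: caatgTattat
ROBO1 intron, chr3:79004026-79004036, minus strand: atgggTtttct
ROBO1 intron, chr3:78832360-78832370, minus strand: aggcaTataca
ROBO1 intron, chr3:78884918-78884928, minus strand: ttgagTttcat
ROBO1 intron, chr3:78909223-78909233, minus strand: atatcTttgat
ROBO1 intron, chr3:78909129-78909139, minus strand: cattaTttccg
ROBO1 exon, chr3:78661099-78661109, minus strand: tgaaaTtaagg
ROBO1 exon, chr3:78659731-78659741, minus strand: ttagtTggcag
ROBO1 3′UTR, chr3:78597961-78597971, minus strand: tctctTttttt
ROBO1 intron, chr3:78884539-78884549, minus strand: ctttcTttttt

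The SLIT2 sites lay almost wholly in the introns of the first stretch of the gene. SLIT2 (ENSG00000145147.20) spans 368657 nt on the plus strand of chromosome 4, from 20251905 to 20620561 in RefSeq (GRCh38.p14). Of its 18 sites, 17 were annotated as intronic and 1 as lying in the 3′UTR, and none as exonic, promoter or 5′UTR. The first site stood 23.3 kb after the start and 16 of the 18 stood within 162 kb of it, the first 43.9% of the gene. Only 1 intronic site lay farther on, at 256 kb, and the 3′UTR site, 1148 nt before the RefSeq end, followed after a stretch of 111 kb with no listed site. The median distance between neighbouring sites was 6.98 kb. The host gene's microRNA MIR218-1 and its intronic long non-coding RNA SLIT2-IT1 held 0 sites, the nearest being 20.0 kb and 10.7 kb away.

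The ROBO1 sites began only downstream of the gene's internal start. ROBO1 (ENSG00000169855.21) spans 1170760 nt on the minus strand of chromosome 3, from 78597239 to 79767998, and RefSeq places a start at 79767998 and another at 79019459. The 749 kb between these starts, 63.9% of the gene, held 0 of the 15 sites, and all 15 lay in the remaining 422 kb. The first stood 15.4 kb after the internal start, and the 12 intronic sites ended 208 kb after it. A stretch of 151 kb without a listed site followed, then the 2 exonic sites, 1368 nt apart, and the 3′UTR site, 727 nt before the gene's end. The list gives coverage at listed sites alone, so whether the upstream 749 kb was covered by reads was not measured here.

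**Figure D1:**
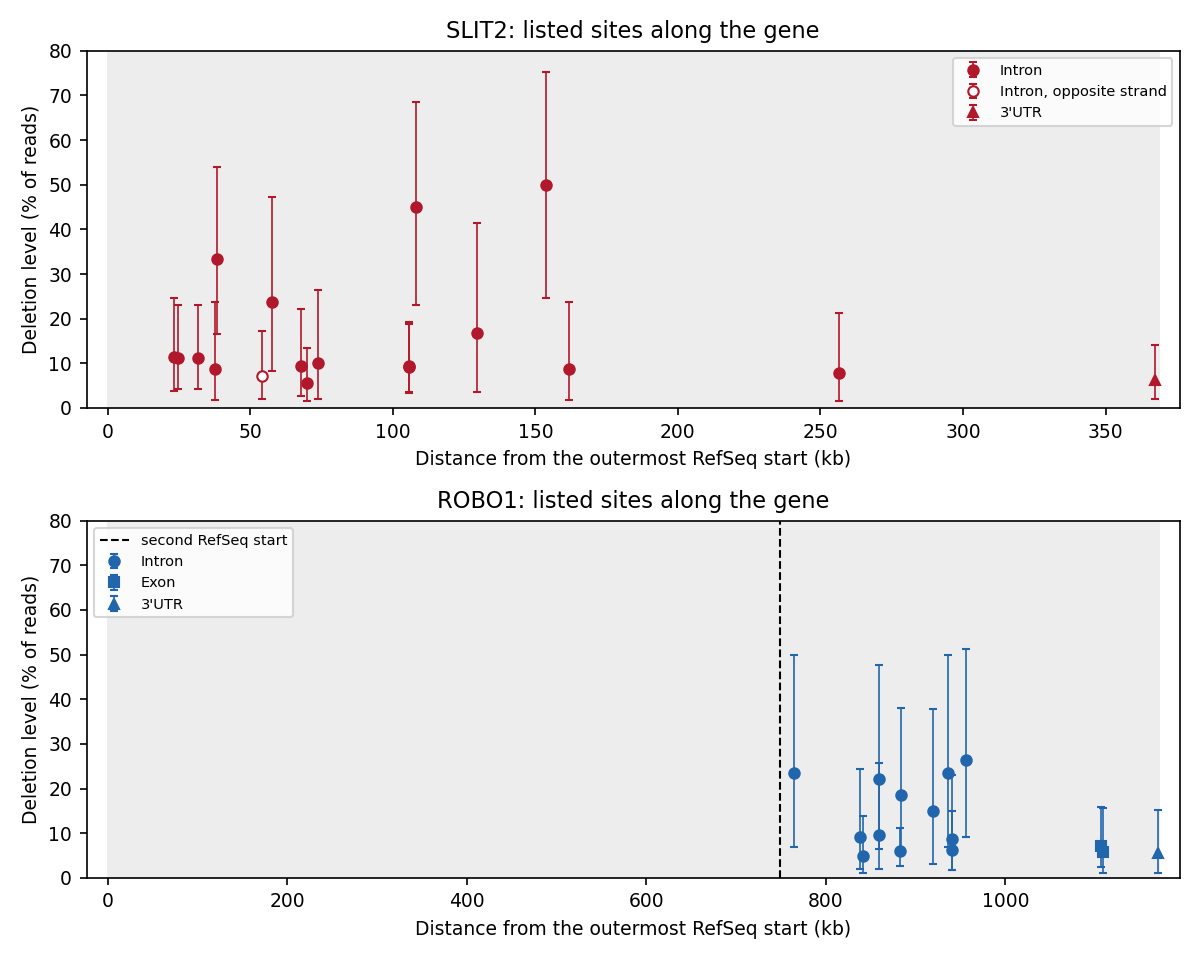
Deletion level in percent of reads (y axis) of each SLIT2 site (upper panel) and ROBO1 site (lower panel) against the distance from the outermost RefSeq start in kb (x axis). Bars are 95% Clopper-Pearson intervals, the grey area is the gene and the dashed line is the internal ROBO1 start. The 16 SLIT2 sites nearest the start end at 162 kb, and the 15 ROBO1 sites all stand to the right of the dashed line.

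Over the full RefSeq spans, ROBO1 sites started later than those of other genes with many sites, and measured from the internal start they did not. Of 29 protein-coding genes with 10 or more sites, 27 had sites inside their RefSeq span. The first site of ROBO1 stood at 65.3% of the gene's full length, the farthest among the 27, and at 3.65% of the 422 kb from the internal start. That of SLIT2 stood at 6.32%. In the other 25 genes, measured over their full spans, the first site stood at a median of 3.78%, and in 24 of them within the first 15%. The exception was MID1, a ubiquitin ligase that binds microtubules, at 56.4%. Measured from the internal start, ROBO1 held 3.55 sites per 100 kb, against 1.28 over its full RefSeq span, and SLIT2 held 4.88. Among sense-strand intronic sites of other coding genes of at least 100 kb, 63.6% of 2339 lay nearer the start than the end. For all listed sites the count was 16 of 18 in SLIT2 (88.9%) and 0 of 15 in ROBO1 over its full span, or 12 of 15 (80%) over the stretch from its internal start. Unlike the 63.6%, these counts include exonic and 3′UTR sites and the opposite-strand SLIT2 site. Only ROBO1 was measured from an internal start. These positions follow from sites chosen by their number and are given as a description.

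**Figure D2:**
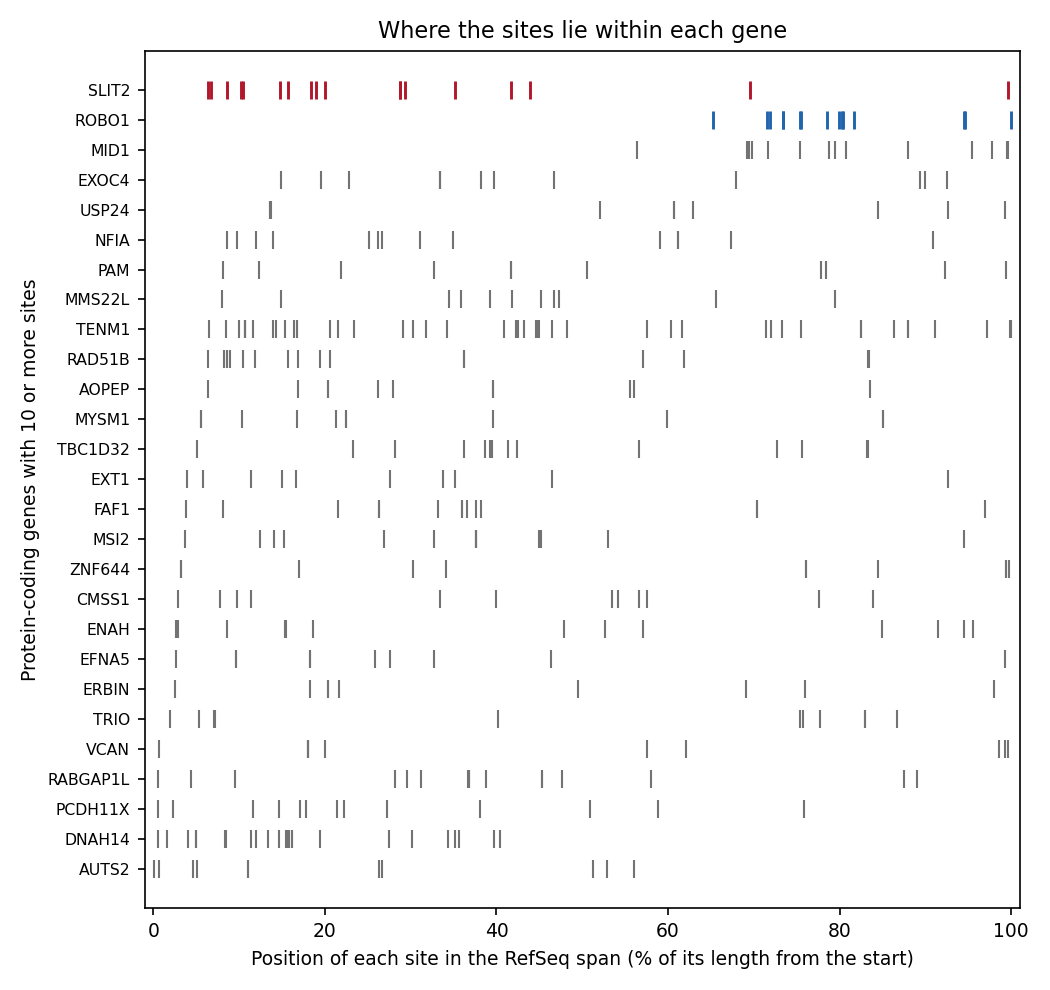
Position of each listed site in percent of the RefSeq gene length from the start (x axis) for the 27 protein-coding genes with 10 or more sites inside their span (rows), SLIT2 and ROBO1 on top. Each tick is a site. ROBO1 has its first tick at 65.3% and MID1 at 56.4%, while the first ticks of the other genes lie within the first 15%.

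SLIT2 and ROBO1 were picked for their numbers of sites, and numbers this high were uncommon among genes of similar length. Of 772 other coding genes within 1.5 times the length of SLIT2, 362 had a site (46.9%), the median number was 0, and 1 gene, DNAH14, a dynein heavy chain, had at least as many, with 24. Of 119 other coding genes within 1.5 times the length of ROBO1, 43 had a site (36.1%), and 3 had 15 sites or more, with TENM1, a teneurin, at 45. In sites per 100 kb of the full span, 2 genes of similar length reached SLIT2 and 5 reached ROBO1. By number of sites SLIT2 had rank 3 among coding genes, and ROBO1 shared rank 6 with GNGT1. These ranks follow from the choice of the genes. How strongly each gene was expressed was not measured here.

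All but 1 of the members lay on the strand of their gene. All 15 ROBO1 sites and 17 of 18 SLIT2 sites did so, compared with 96.1% of 4821 intronic sites of coding genes whose strand RefSeq gave. The exception stood at chromosome 4 position 20306161 on the minus strand, with 7.1% (4 of 56 reads, interval 1.98 to 17.3%). Within the ROBO1 span 3 further sites, on the opposite strand, were deposited under the symbol RN7SL751P, a 7SL pseudogene. At 78864055 and 78864056 they had 22.2% each (4 of 18 reads), and at 78890019 11.1% (3 of 27 reads). RefSeq places that pseudogene at 78938009 to 78938292, where no site was listed, so the symbol does not match the RefSeq position. These 3 are not counted as ROBO1 sites.

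The levels of SLIT2 ran wider than those of ROBO1, with 3 SLIT2 sites above the highest ROBO1 level. The intervals of these 3 sites all overlapped that of the highest ROBO1 site (9.15 to 51.2%). SLIT2 levels ranged from 5.5 to 50.0% with a median of 9.7%, and ROBO1 levels from 5.0 to 26.3% with a median of 9.1%. The 3 highest SLIT2 sites, at 38.5, 108 and 154 kb from the start, were the only members whose intervals lay wholly above that of another site of their gene. In the 153 pairs of SLIT2 sites, 23 had intervals that did not overlap, each with 1 of these 3 sites as its upper member, and in the 105 pairs of ROBO1 sites 0 did. The same share was not computed for other genes or over all listed sites. The counts therefore mark no trait of either gene. All intervals are 95% Clopper-Pearson intervals, which cover counting error only. Whether PCR copies were removed or molecular identifiers used was not given, so reads may not be independent molecules.

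The highest SLIT2 site, at position 20405540 in an intron, had 50.0% (8 of 16 reads, interval 24.7 to 75.3%). The second, at 20360094, had 45.0% (9 of 20 reads, interval 23.1 to 68.5%). Position 20290356, the next in level, had 33.3% (9 of 27 reads, interval 16.5 to 54.0%). These 3 sites had 8 or 9 deletion reads each, and no other SLIT2 site had more than 6. Positions 20309707 and 20381351 completed the 5 highest, with 23.8% (5 of 21 reads, interval 8.22 to 47.2%) and 16.7% (3 of 18 reads, interval 3.58 to 41.4%). Their intervals overlapped those of every other SLIT2 site.

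The 3 deepest SLIT2 sites were low. The 3′UTR site at 20619413 had 6.3% at 79 reads (5 deletion reads, interval 2.09 to 14.2%), position 20321718 had 5.5% at 73 reads (4 deletion reads, interval 1.51 to 13.4%), and position 20357762 had 9.1% at 66 reads (6 deletion reads, interval 3.41 to 18.7%). The intervals of the 3 deepest sites all overlapped. Position 20357762 and its neighbour 20357763, with 9.4% (6 of 64 reads), are the last 2 uridines of a run of 4, where a deletion cannot be assigned to 1 base, and they may share reads. The other 9 SLIT2 sites had levels of 7.1 to 11.4% at 30 to 56 reads, the opposite-strand site among them.

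The highest ROBO1 levels rested on few reads. No ROBO1 site had an interval wholly above that of another ROBO1 site, but without the same share for other genes this marks no trait of ROBO1. The highest ROBO1 site, at 78811937 in an intron, had 26.3% (5 of 19 reads, interval 9.15 to 51.2%). Positions 79004031 and 78832365 followed with 23.5% each (4 of 17 reads, interval 6.81 to 49.9%), then 78909134 with 22.2% (4 of 18 reads) and 78884544 with 18.5% (5 of 27 reads, interval 6.30 to 38.1%). These 5 highest levels rest on 17 to 27 reads, and their intervals overlap those of all other ROBO1 sites. The deepest member of either gene was ROBO1 position 78884923, with 5.9% (8 of 136 reads, interval 2.57 to 11.3%), and it lay 379 nt from the site at 78884544.

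The exonic and 3′UTR sites of ROBO1 had low levels, and so did its deep intronic sites. Its intronic sites with 60 reads or more had 5.0, 5.9 and 6.2%. The 2 exonic sites had 7.1% at 78661104 (5 of 70 reads, interval 2.36 to 15.9%) and 5.7% at 78659736 (3 of 53 reads, interval 1.18 to 15.7%), and the 3′UTR site at 78597966 had 5.5% (3 of 55 reads, interval 1.14 to 15.1%). The intervals of all 3 overlapped those of every intronic ROBO1 site. The intronic pair at 78909228 and 78909134, 94 nt apart, had 9.7% (3 of 31 reads) and 22.2%, also with overlapping intervals. Position 78827673, among the 3 deepest ROBO1 sites with the deepest site and the exonic site at 78661104, had 6.2% (4 of 65 reads, interval 1.70 to 15.0%). The other 4 intronic sites, at 78926381, 78929981, 78827226 and 78849090, had 5.0 to 15.0% at 20 to 60 reads, each with 3 deletion reads.

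The summed deletion reads over the summed coverage gave 12.0% for SLIT2 (92 of 769 reads, interval 9.75 to 14.5%) and 9.15% for ROBO1 (60 of 656 reads, interval 7.05 to 11.6%). These intervals take all reads of a gene as draws from 1 level. Levels differed between sites, sites were listed for their deletions, and neighbouring sites may share reads. The intervals can thus be too narrow, and their overlap does not compare the genes. Intronic sites of other coding genes had 14.6% by the same sum and a median of 14.3%. Levels on this list depend on depth, since a site needed at least 3 deletion reads and 5% and so could not be listed under 20% at 15 reads. Median coverage was 40.5 reads over all SLIT2 sites and 33 over all ROBO1 sites, against 29 in those intronic sites. The 17 intronic SLIT2 sites alone had a median level of 10.0% at a median of 38 reads, and the 12 intronic ROBO1 sites 12.35% at 29 reads. The levels of all members are therefore given by depth as well. The classes of 30 reads or more include members outside introns, whereas the other sites compared are intronic alone. At 15 to 29 reads the median level was 33.3% in SLIT2 (5 sites) and 22.85% in ROBO1 (6 sites), against 18.8% in the other intronic sites. At 30 to 59 reads it was 9.3% (9 sites) and 8.6% (5 sites), against 9.5%. At 60 reads or more it was 7.7% (4 sites) and 6.05% (4 sites), against 6.7%. Sites of 1 gene share their transcript and are not replicates, so no test was made of these differences.

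**Figure D3:**
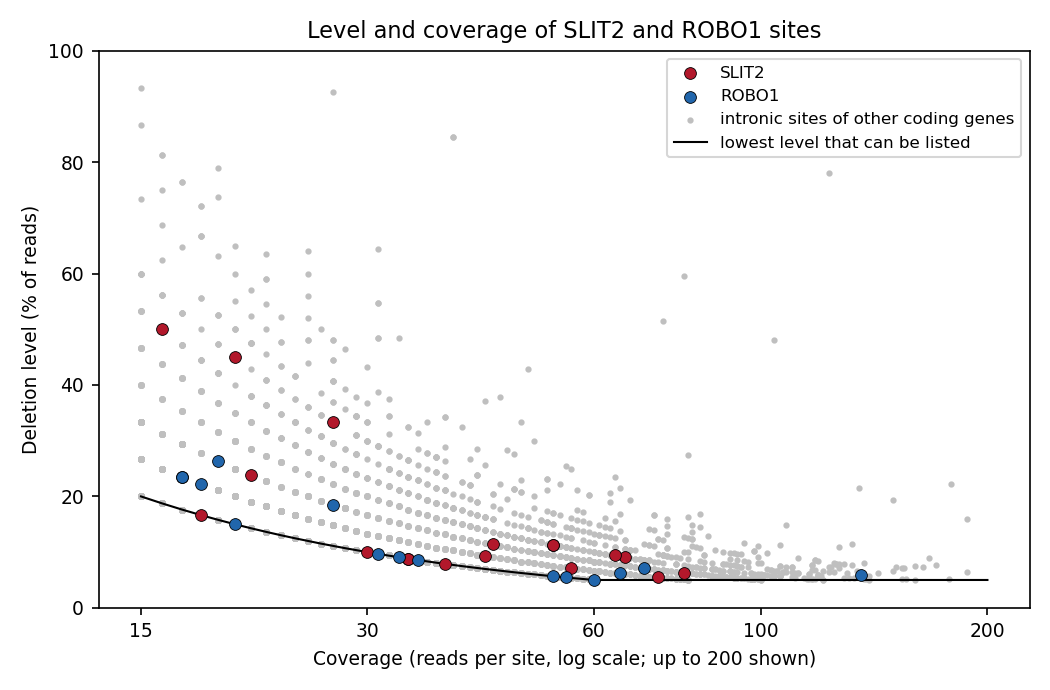
Deletion level in percent of reads (y axis) against coverage in reads on a log scale (x axis) for SLIT2, ROBO1 and, in grey, intronic sites of other coding genes; deeper sites lie beyond the axis. The line is the lowest level that 3 deletion reads and the 5% minimum allow. The SLIT2 sites at 50.0, 45.0 and 33.3% stand farthest above the line, and the other members lie nearer to it.

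Many members rested on the smallest number of deletion reads that the list admits. In SLIT2, 5 of 18 sites (27.8%) had exactly 3 deletion reads and 3 had 8 or more. In ROBO1, 7 of 15 (46.7%) had exactly 3 and 1 had 8. In the other intronic sites 39.5% had exactly 3 and 9.10% had 8 or more. The p-value in the authors' deposited table was 0 for all 33 members, as it was for 13242 of the 13398 sites, so it does not rank them.

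Few members, and few other listed sites, lay in the sequence known for a pseudouridine synthase. Any of the motifs below was matched by 2 of the 33 members (6.06%). The share was 8.43% in intronic sites of other coding genes and 7.79% in all listed sites. With the listed base at the modified position, 2 SLIT2 sites matched the PUS1 motif HRUAR, and no member matched the PUS7 motif UNUAR or the TRUB1 motif GUUCNA. R stands for A or G, and H for A, C or U. The matches were the highest SLIT2 site (50.0%, cataaTaatct) and the site at 20381351 (16.7%, aataaTaaata), 24189 nt apart, which share the stretch ataaTaa. That makes 11.1% of the SLIT2 sites, while 0 of 15 ROBO1 sites matched any motif, which allows a share of up to 20.0% (3 of 15, the limit that a count of 0 allows). Among intronic sites of other coding genes, 4.28% matched HRUAR, 5.51% UNUAR and 0.391% GUUCNA. Counting any uridine of a run added no member, while the share with any motif in those intronic sites was then 11.5%. PUS1 is among the enzymes deleted in the knockout, but without knockout values the matches are a description of letters and not of an enzyme's action.

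Most members stood in runs of uridine, where the exact base is uncertain. A run of 2 or more held 11 of 18 SLIT2 sites (61.1%) and 11 of 15 ROBO1 sites (73.3%), against 60.4% of the other intronic sites. The longest run visible was 7 uridines at the ROBO1 3′UTR site, tctctTttttt, where the run reaches the end of the printed context. Of the 10 plus-strand SLIT2 sites whose run lay wholly inside the context, 9 were listed at its 3′ end. Of the 9 such ROBO1 sites on the minus strand, 8 were listed at its 5′ end. Across all sites the shares were 87.5% at the 3′ end on the plus strand and 85.9% at the 5′ end on the minus strand, which is the same genomic end on both strands. Base frequencies next to the site thus follow the strand and cannot be compared between the plus-strand gene SLIT2 and the minus-strand gene ROBO1.

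Pyrimidine and G plus C shares over the 10 flanking bases were close to those of other introns, and uridine shares were less so. Pyrimidines made up 56.1% of the flanks in SLIT2 and 58.7% in ROBO1, against 55.5%, and G and C together 36.7% and 34.7%, against 39.8%. Uridine made up 32.2% of the flanks in SLIT2 and 42.0% in ROBO1, against 35.6%. Contexts were mostly their own: none of the 18 SLIT2 contexts was listed anywhere else, and 3 of the 15 ROBO1 contexts were. The context ctttcTttttt of ROBO1 position 78884544 was listed at 8 other sites, and those of positions 78849090 and 78597966 at 1 other site each. Among the other intronic sites 12.0% had a context listed more than once.

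Apart from SLIT2 and ROBO1, which were chosen for their numbers of sites, the most sites in the guidance lists were 13 in ENAH and 12 in EFNA5. A site was listed for 25.7% of all RefSeq protein-coding genes and for 45% of those of 100 kb or more. Of the 7 SLIT and ROBO genes, 3 had a site (42.9%), a share set in part by the choice of SLIT2 and ROBO1 for their sites, and of the other 5 genes 1 did. ROBO2, a receptor related to ROBO1, had 9 sites, all intronic and on its own strand. SLIT1, SLIT3, ROBO3 and ROBO4 had none. ROBO2 levels ran from 5.4 to 20.0% with a median of 15.8% at a median coverage of 26 reads, and the highest, at chromosome 3 position 76193211, had 4 of 20 reads (interval 5.73 to 43.7%). Its first site stood at 2.27% of its 1743290 nt, so ROBO2 sites began near its outermost RefSeq start. Of its 9 sites, 2 matched the PUS1 motif, at 6.0% (3 of 50 reads) and 15.8% (3 of 19 reads).

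Among 28 intracellular and surface partners of Slit-Robo signalling, 19 had a site (67.9%), and of the 16 partners of 100 kb or more, 10 did (62.5%). The list was chosen with earlier results of these data known, and expression was not measured. No enrichment of the pathway is therefore read from these shares. ENAH, an actin regulator whose fly counterpart binds the tail of Robo, had the most, with 13 sites at a median of 9.8%. The highest partner level was in an intron of MYO9B, a myosin with a RhoGAP domain, at 86.7% (13 of 15 reads, interval 59.5 to 98.3%). CLASP2, a microtubule plus-end protein, had 38.1% (8 of 21 reads, interval 18.1 to 61.6%), and EVL, of the same family as ENAH, 33.3% (5 of 15 reads, interval 11.8 to 61.6%). The RhoGAP genes SRGAP1 and SRGAP2, named for this pathway, had 1 site each, SRGAP1 at 12.5% in the 3′UTR and SRGAP2 at 8.1% in an exon, and SRGAP3 had none. ABL1, a kinase whose fly counterpart phosphorylates Robo, had 3 sites between 7.9 and 13.0%, none of them intronic. CDC42, a small GTPase of the pathway, had 1 site at 22.2%, and RAC1 1 at 8.6%, while RHOA, of the same family, had none. The other partners without a site were NCK1, NCK2, SOS2, PAK1, CAP2, GPC1 and ARHGAP39.

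The other guidance families had a site in 22.6 to 35.7% of their genes, against the 25.7% of all coding genes. Among genes of 100 kb or more the shares were 44.4% of 9 in the netrin family, 35.7% of 14 in the semaphorin, plexin and neuropilin families and 50.0% of 8 in the ephrin and Eph families, against 45%. A site was listed for 5 of 14 netrin ligands and receptors (35.7%), 7 of 31 semaphorins, plexins and neuropilins (22.6%) and 5 of 22 ephrins and Eph receptors (22.7%). The netrin family peaked at 20.0% in NEO1, a netrin receptor (5 of 25 reads), with NTN1, a netrin, at 19.0% and UNC5C, a repulsive netrin receptor, at 18.8%. SEMA6A, a transmembrane semaphorin, had 56.2% (9 of 16 reads, interval 29.9 to 80.2%), SEMA4D 33.3% (8 of 24 reads) and SEMA3C 20.0% (4 of 20 reads). EPHA6, an Eph receptor, had 53.3% (8 of 15 reads, interval 26.6 to 78.7%), and EPHA7 26.1% (6 of 23 reads) at each of 2 adjacent positions.

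**Figure D4:**
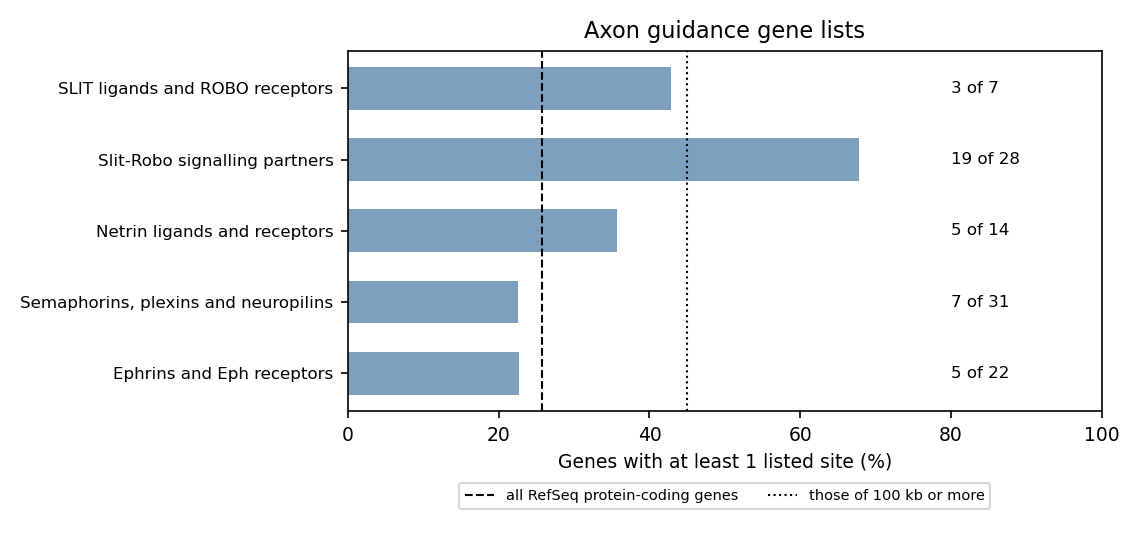
Share of genes with at least 1 listed site in percent (x axis) for 5 axon guidance lists (bars, with counts). SLIT2 and ROBO1, chosen for their sites, are 2 of the 3 genes behind the first bar. The dashed line is the 25.7% of all RefSeq protein-coding genes and the dotted line the 45% of those of 100 kb or more. The bars hold genes of all lengths, as the dashed line does. The Slit-Robo partners stand at 67.9%, and the 16 of them of 100 kb or more, not drawn, at 62.5%.

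The genes most like each member were sought by median level and median coverage, since the list has no samples over which a pattern could be compared. Among the 28 other coding genes with 10 or more sites, those nearest in the summed rank difference to SLIT2 (9.7% at 40.5 reads) were TBC1D32 (9.75% at 41.5 reads), NFIA (9.45% at 36 reads) and PCDH11X (9.4% at 48 reads). Those nearest to ROBO1 (9.1% at 33 reads) were USP24 (9.2% at 35.5 reads), TRIO (9.1% at 39 reads) and DNAH14 (9.35% at 38 reads). The first sites of these 6 genes stood between 0.507 and 13.7% of the gene's length, against 65.3% in ROBO1 over its full span. The median site stood at 75.4% in TRIO, 60.7% in USP24 and 15.6% in DNAH14, against 78.5% in ROBO1 over its full span. Over the stretch from its internal start, the median ROBO1 site stood at 40.4%.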

How the data were processed

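The deposited table lists candidate pseudouridine sites of HEK293T cells on hg38, per the submitters' processing notes. The aligner, the caller and the test were not given in the sources used here, nor were the libraries behind each value. Per the file headers, the level was deposited as a fraction of reads with a deletion and coverage as a read count. The p-value and FDR are those of the authors' deposited table. Level times coverage, rounded, gave the deletion reads, a whole number within the rounding of the level (0.0005) at all 13398 sites. Levels are printed in percent with 95% Clopper-Pearson intervals (scipy 1.17.1). All listed levels were at least 5%, coverages at least 15 and deletion reads at least 3. The depth per library is unknown.

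Groups of libraries come from their titles and entered no test. Gene spans, strands and starts are those of RefSeq (GRCh38.p14), matched by symbol or unique synonym for 10431 of 10559 coding sites, and contexts are as deposited. No exon structure was used. Named singly by rule were, per gene, the 5 highest and 3 deepest sites, sites outside introns, on the other strand, in a motif or in pairs within 100 nt, and the 3 highest sites of each list. Genes with the most sites and partners named beyond that were chosen after their values were seen. The members and lists were chosen with earlier results of these data known. The computation was tested on simulated data. Alternatives were minimums of coverage and deletion reads, region, strand, merging of neighbours, gene assignment, run placement and the Wilson interval.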

Additional observations from a re-analysis of the deposited data

How the results depend on the processing

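No paired analysis was possible because the table has no column per library. Counts fell with every depth limit by construction, since fewer sites remain. At coverage of at least 30, SLIT2 kept 13 sites and ROBO1 9, at summed levels of 8.70% and 6.51%, the Slit-Robo genes with a site numbered 13 in place of 22, and the share of SLIT2 sites with a motif was 0%. At coverage of at least 60, each gene kept 4 sites, at summed levels of 7.45% in SLIT2 and 6.04% in ROBO1, the SLIT2 median was 7.7%, 0% of SLIT2 sites had a motif and 8 genes had a site. With at least 5 deletion reads, SLIT2 kept 10 sites at a summed level of 14.7%, ROBO1 kept 4, and 14 genes had a site. With intronic sites alone 14 genes had a site. The 2 SLIT2 sites in a PUS1 motif, at 16 and 18 reads, are thus below every coverage limit tried. Counting all listed sites inside the RefSeq span gave 18 for SLIT2 and 18 for ROBO1, counting sites within 10 nt once gave 17 and 15, and leaving out contexts listed elsewhere, an alternative chosen after seeing the data, gave 18 and 12. The Wilson interval had a median width of 19.4 points over the 33 members, against 21.3 points for the Clopper-Pearson interval. Depth limits single levels: a site with 3 deletion reads in 18 reads has an interval of 3.58 to 41.4%.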

Other observations

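A sequence feature noticed after the contexts were seen is the triplet CAG at the 3′ end of the 11-base context. It stood there in 4 of the 33 members (12.1%), namely 3 ROBO1 sites (78929981, ctgacTtccag; 78827673, gcagaTttcag; 78659736, ttagtTggcag) and the opposite-strand SLIT2 site (20306161, gctgcTttcag), against 1.67% of intronic sites of other coding genes and 1.76% of all listed sites. The triplet and its place were picked from these same contexts, so the difference between the shares cannot be read as an excess. All 4 sites are on the minus strand, whereas the shares of other sites cover both strands. The levels of the 4 sites were 9.1, 6.2, 5.7 and 7.1%, at 33 to 65 reads. All members at such depth were low. At 30 to 59 reads their median was 8.95% and their highest level 11.4%, and at 60 reads or more 6.25% and 9.4%. A link between the triplet and the level was not tested. Exon structure was not used here, so the distance of these sites to a splice site was not measured.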
